A study of Mus musculus with 6 samples.

Results

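Tek, the angiopoietin receptor of blood vessels, was described here together with 9 other genes of vessel signalling and endothelial identity in mouse calf muscle. The genes were Tek, Tie1, Kdr, Flt1, Pecam1, Cdh5, Eng, Emcn, Vegfa and Angpt1, and every probe set annotated with exactly 1 of these symbols was taken. The 10 genes were among 18193 named on the array and gave 17 probe sets of the 45037 on the array that were not controls, and all 17 were bright enough to stay among the 27022 probe sets that were tested. The set was chosen by the signals themselves, since the lower Tek signal in transgenic muscle and the differences of other endothelial markers were known when the genes were picked. Their differences between the genotypes are therefore given as a description. The number that passed the fit over all probe sets is printed beside the share over all of them, and nothing is read from it.

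The arrays compared integrin alpha7 transgenic mice with wild type control mice, both on the SJ6/C57BL6 background, female, non-fasted and 5 weeks old. Integrin alpha7 anchors muscle fibres to laminin in their basement membrane, and the labels do not name the promoter that drives the transgene. Each genotype had 3 arrays of gastrocnemius and soleus muscle in the basal state, each hybridised with a pool of equal RNA amounts from 6 mice, which made 18 mice per genotype. The titles of the wild type arrays also carry the word Intronic, which the labels do not explain.

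Endothelial cells line the capillaries that run along muscle fibres. Their growth and survival depend on VEGF, a ligand made largely by muscle fibres and bound by the receptors encoded by Kdr and Flt1. Angiopoietin 1, made by cells around the vessel, activates Tek, and Tie1 is a related receptor that acts with Tek. Pecam1, Cdh5 and Emcn encode surface and junction proteins of the endothelium, and Eng a co-receptor for ligands of the TGF-beta family.

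The arrays were checked first on the transgene and the tissue. Itga7 had a signal of 2238 ± 228 (SD, n = 3) in transgenic muscle and 292 ± 32.7 (SD, n = 3) in wild type muscle. All 10 muscle fibre markers were measured, with Ckm, the muscle creatine kinase, at 19331 to 21114 in transgenic muscle and 21016 to 22128 in wild type muscle. All 28 further endothelial markers were also bright enough to be tested. Median signals were 34.0 to 37.3 on the transgenic arrays and 36.2 to 38.4 on the wild type arrays, and the correlation between pairs of arrays was 0.971 to 0.981 on the log2(signal + 16) scale. The recorded hours of hybridisation fell into 2 groups, which are called rounds here. The first round held replicates 1 and 2 of both genotypes and the second replicate 3 of both. Transgenic arrays ran on fluidics modules 2 and 4 and wild type arrays on modules 1 and 3. A difference between the genotypes therefore cannot be told apart from one between modules.

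For 3 genes, Tek, Kdr and Emcn, every transgenic array lay below every wild type array. These were 3 of the 17 probe sets, where 7.50% of all tested probe sets had this pattern, and nothing is read from the count. Their promoter windows are shown because these genes are the ones whose lower signal in transgenic muscle was shared by all arrays. The windows come from RefSeq (assembly GRCm38.p6), run 5′ to 3′ on the gene's strand, and span 250 bases before to 50 bases after the start that the RefSeq window table uses. For all 3 genes that start lies inside the outermost bounds annotated for the gene, and the table does not name the transcript it belongs to. Capitals mark GGAA and its reverse complement TTCC, the core letters recognised by ETS factors, a family known to act at endothelial genes.
Tek, chr4:94739039-94739338, plus strand: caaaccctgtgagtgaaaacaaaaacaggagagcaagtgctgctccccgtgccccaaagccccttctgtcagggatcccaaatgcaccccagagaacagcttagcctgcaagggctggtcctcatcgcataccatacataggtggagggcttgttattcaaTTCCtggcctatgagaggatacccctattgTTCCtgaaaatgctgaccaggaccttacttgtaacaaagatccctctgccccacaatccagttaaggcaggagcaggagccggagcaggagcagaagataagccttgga
Kdr, chr5:75978406-75978705, minus strand: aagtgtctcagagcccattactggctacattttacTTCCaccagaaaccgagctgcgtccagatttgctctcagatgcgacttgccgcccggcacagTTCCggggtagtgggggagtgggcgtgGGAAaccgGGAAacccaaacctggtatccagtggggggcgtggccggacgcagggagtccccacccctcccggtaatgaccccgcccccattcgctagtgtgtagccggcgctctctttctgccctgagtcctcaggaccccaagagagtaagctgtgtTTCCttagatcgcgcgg
Emcn, chr3:137340828-137341127, plus strand: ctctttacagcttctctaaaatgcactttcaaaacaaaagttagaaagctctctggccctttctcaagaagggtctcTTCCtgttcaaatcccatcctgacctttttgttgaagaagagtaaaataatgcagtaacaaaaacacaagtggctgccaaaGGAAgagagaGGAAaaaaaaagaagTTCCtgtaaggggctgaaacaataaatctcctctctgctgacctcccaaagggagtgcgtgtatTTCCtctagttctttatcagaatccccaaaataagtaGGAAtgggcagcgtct

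The core was counted on both strands. The Tek window held 2 copies, the Kdr window 5 and the Emcn window 6. Of all 32851 windows of this length, 84.6% held at least 2 copies, 28.6% at least 5 and 15.7% at least 6. The Tie1 window held 9 copies, a number reached by 1.59% of all windows, although the Tie1 signals of the genotypes overlapped. Flt1 and Eng had 4 copies each, and the 2 windows of Vegfa had 6 and 3. The longer motif ACAGGAAG, which contains the core, was found on either strand in the Emcn window and in none of the other 7 windows, against 3.58% of all windows. These matches describe letters in the window and say nothing about binding.

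Signals of Tek were 243, 258 and 268 in the 3 transgenic pools, against 330, 337 and 331 in the 3 wild type pools (linear signal, replicates 1 to 3). The transgenic arrays were all low and the wild type arrays lay close together, so the groups did not overlap. The means were 257 ± 12.7 and 333 ± 3.57 (SD, n = 3 each) in transgenic and wild type muscle. On the log2(signal + 16) scale, which understates the change of dim transcripts, the difference was -0.36 with a standard error of 0.10, or 0.782-fold. Of all tested probe sets, 7.09% had a difference as low or lower. The difference was -0.39 in the first hybridisation round, with 2 arrays of each genotype, and -0.29 in the second, with 1 of each. Because whole muscle was measured, fewer endothelial cells and less Tek transcript per cell cannot be told apart.

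Tie1, the receptor related to Tek, gave 92.9, 103 and 111 in transgenic muscle and 95.1, 140 and 118 in wild type muscle. Its groups overlapped, and the wild type arrays were spread more widely than the transgenic ones. The log2 difference was -0.17 with a standard error of 0.16. Single arrays moved it, to -0.30 when wild type replicate 1 was left out and to -0.05 when replicate 2 was.

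**Figure D1:**
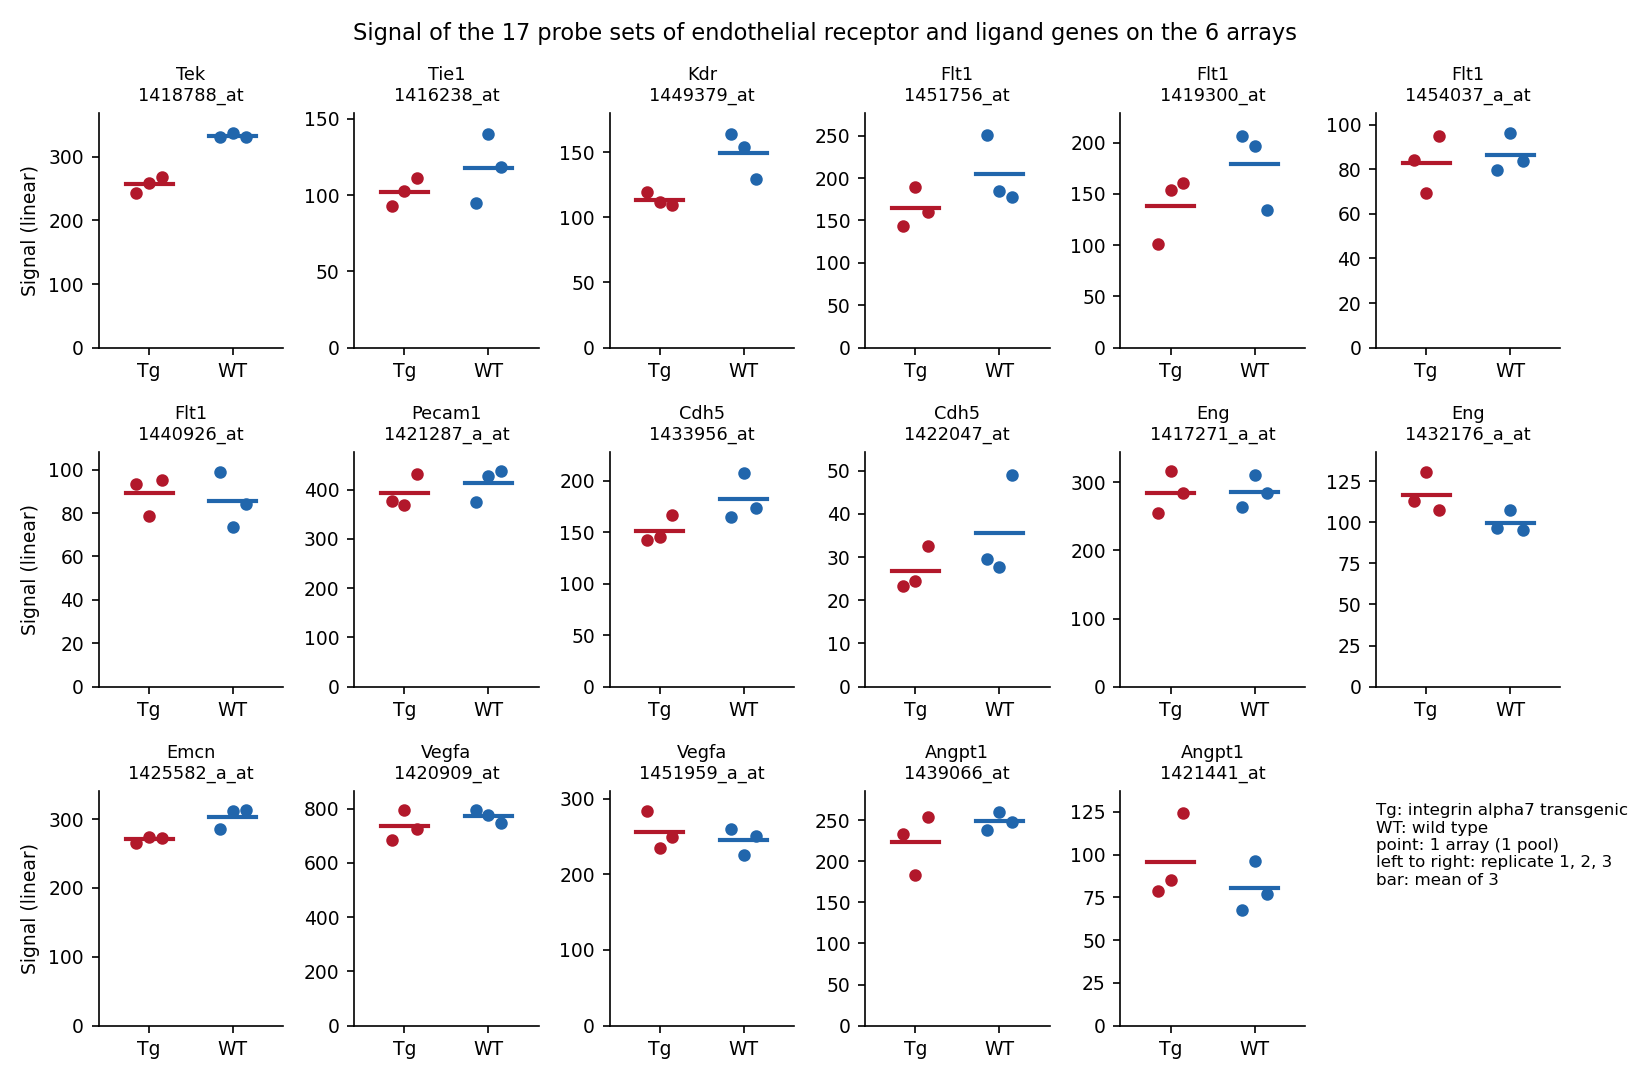
Linear signal of the 17 probe sets of the 10 genes on each array, with transgenic arrays (red) left of wild type arrays (blue), each point 1 pool and each bar the mean of 3. The transgenic points lie wholly below the wild type points for Tek, Kdr and Emcn, and wholly above them for the Eng probe set 1432176_a_at.

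Kdr encodes VEGFR2, the main signalling receptor for VEGF on endothelial cells. Its signals were 119, 112 and 110 in transgenic muscle and 164, 154 and 130 in wild type muscle. The transgenic arrays were all low, while wild type replicate 3 was nearest to them. The means were 114 ± 5.22 in transgenic and 149 ± 17.7 in wild type muscle (SD, n = 3 each). The log2 difference was -0.35 with a standard error of 0.13, at -0.41 in the first round and -0.21 in the second.

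Flt1 encodes VEGFR1, which binds VEGF tightly and also exists as a soluble form. Its 4 probe sets did not give 1 picture. The annotation used does not say which form each measures.

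Probe set 1451756_at gave 143, 190 and 160 in transgenic muscle and 251, 184 and 177 in wild type muscle. The groups overlapped, since transgenic replicate 2 lay above wild type replicates 2 and 3. Probe set 1419300_at gave 101, 153 and 160 in transgenic muscle and 207, 197 and 135 in wild type muscle. Here wild type replicate 3 was below transgenic replicates 2 and 3, and the log2 difference was -0.63 in the first round but 0.23 in the second. Over all 6 arrays the log2 differences were -0.28 with a standard error of 0.15 for 1451756_at and -0.34 with a standard error of 0.19 for 1419300_at. Without wild type replicate 1 the first was -0.14, and without transgenic replicate 1 the second was -0.16. The other two Flt1 probe sets had differences near 0, with -0.06 for 1454037_a_at and 0.06 for 1440926_at, each with a standard error of 0.16. Their signals were 69.3 to 95.2 in transgenic muscle and 73.4 to 98.9 in wild type muscle over both probe sets.

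**Figure D2:**
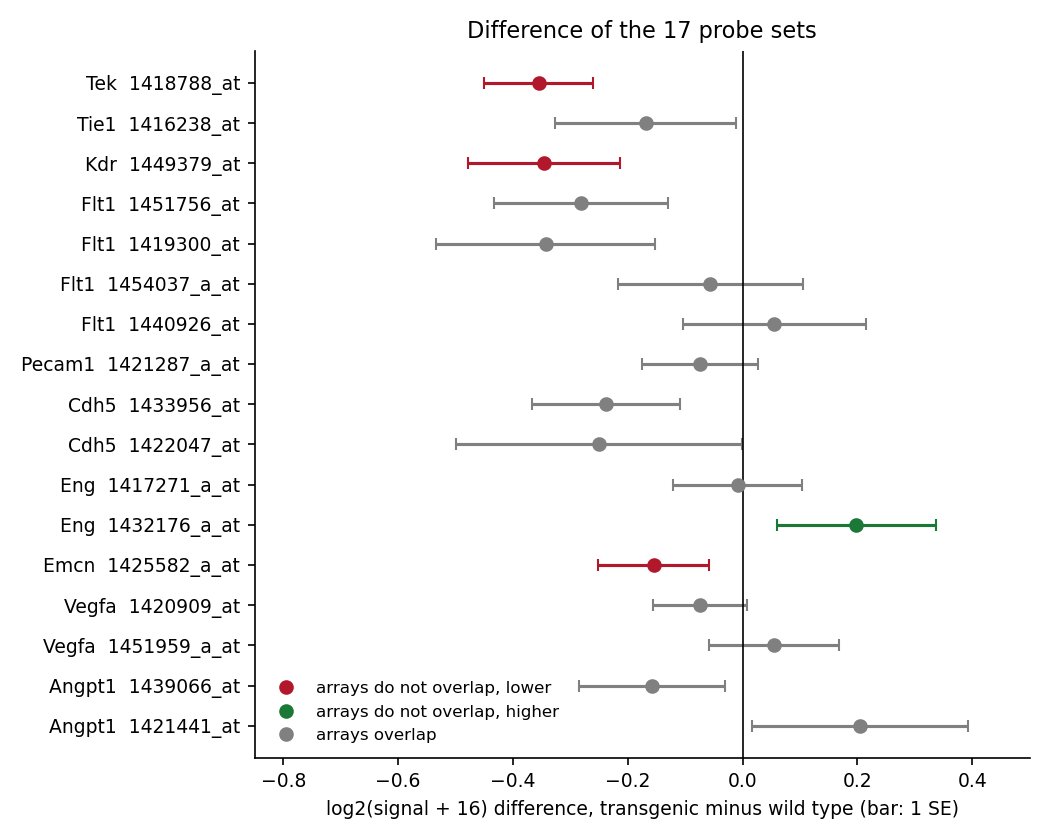
Difference in log2(signal + 16), transgenic minus wild type, of each of the 17 probe sets (point) with 1 standard error (bar). Of the 17, 13 lie left of 0, among them those of Tek and Kdr at -0.36 and -0.35, and the pairs of probe sets of Eng, Vegfa and Angpt1 lie on both sides of 0.

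Emcn, the endomucin of capillary and venous endothelium, gave 266, 274 and 273 in transgenic muscle and 286, 312 and 313 in wild type muscle. The gap between the groups was small beside the signal, but no arrays overlapped. The log2 difference was -0.15 with a standard error of 0.10, at -0.14 in the first round and -0.19 in the second.

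Cdh5 encodes VE-cadherin, the adhesion protein of endothelial junctions. Its brighter probe set, 1433956_at, gave 143, 145 and 167 in transgenic muscle and 165, 208 and 174 in wild type muscle. The groups overlapped by a single pair of arrays, with transgenic replicate 3 just above wild type replicate 1. The log2 difference was -0.24 with a standard error of 0.13. The dim probe set 1422047_at gave 23.2, 24.5 and 32.6 in transgenic muscle and 29.7, 27.8 and 49.0 in wild type muscle, a log2 difference of -0.25 with a standard error of 0.25. Leaving out wild type replicate 3 gave -0.07 for the dim probe set, and leaving out replicate 2 gave -0.15 for the brighter one.

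Pecam1, an adhesion molecule of endothelial cells that platelets and leukocytes also carry, gave 376, 369 and 432 in transgenic muscle and 376, 429 and 438 in wild type muscle. The groups overlapped, and the log2 difference was -0.07 with a standard error of 0.10.

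Eng had 2 probe sets that differed from each other. The brighter, 1417271_a_at, gave 255, 316 and 284 in transgenic muscle and 263, 311 and 284 in wild type muscle, which cover the same range. Its log2 difference was -0.01 with a standard error of 0.11. The other, 1432176_a_at, gave 113, 130 and 107.4 in transgenic muscle and 96.4, 107.4 and 95.0 in wild type muscle. Its transgenic arrays lay above the wild type ones, transgenic replicate 3 by less than 0.1 of a signal unit over wild type replicate 2, and the log2 difference was 0.20 with a standard error of 0.14.

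The ligands showed smaller or mixed differences. Vegfa, the ligand of Kdr and Flt1, gave 685, 796 and 724 in transgenic muscle and 796, 777 and 748 in wild type muscle on 1420909_at, a log2 difference of -0.07 with a standard error of 0.08. On 1451959_a_at it gave 284, 234 and 249 in transgenic muscle and 260, 225 and 251 in wild type muscle, a log2 difference of 0.05 with a standard error of 0.11. The arrays of the genotypes overlapped on both.

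Angpt1, the ligand that activates Tek, gave 233, 183 and 253 in transgenic muscle and 238, 261 and 248 in wild type muscle on 1439066_at. Transgenic replicate 2 was the low array there, and the log2 difference was -0.16 with a standard error of 0.13. On 1421441_at Angpt1 gave 78.5, 85.1 and 124 in transgenic muscle and 67.8, 96.0 and 77.2 in wild type muscle, where transgenic replicate 3 was the high array. That log2 difference was 0.20 with a standard error of 0.19, so the probe sets of this ligand pointed in opposite directions, both with overlapping groups.

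Counted together, 13 of the 17 probe sets had a log2 difference below 0, where 52.6% of all tested probe sets did. Their median was -0.15, and that of all tested probe sets -0.01. Leaving out replicate 2 of the wild type moved their median to -0.07, and leaving out its replicate 3 to -0.10. The arrays did not overlap and were lower in transgenic muscle for 3 of the 17, where 7.50% of all tested probe sets had this pattern, and they were higher for 1, where 5.85% did. In the limma fit over all probe sets with Benjamini-Hochberg adjustment, 0 of the 17 passed an adjusted p of 0.05, against 0.122% of all tested. At an unadjusted p under 0.05 the count was 2, against 7.85% of all tested. Nothing is read from these counts, since the genes were chosen with this contrast known. With the brightest probe set of each gene, all 10 differences were below 0, where 51.0% of the 12942 genes were, and the median was -0.16. In the first hybridisation round 13 of the 17 probe sets were below 0, and in the second 11.

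On all 3 transgenic arrays Tek, which was chosen for its low signal there, lay below the median of the other 7 receptor and surface genes. Relative to its wild type mean on the log2(signal + 16) scale, Tek was at -0.43, -0.35 and -0.29 on transgenic replicates 1 to 3. That median, with each gene relative to its own wild type mean, was -0.28, -0.16 and -0.11 on the same arrays. On wild type replicates 1 to 3 Tek was at -0.01, 0.02 and -0.01, and that median at -0.11, 0.05 and -0.01, so that Tek was the higher on replicate 1 and the lower on replicate 2. Kdr was below Tek on transgenic replicates 2 and 3, and Flt1 on replicates 1 and 3.

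**Figure D3:**
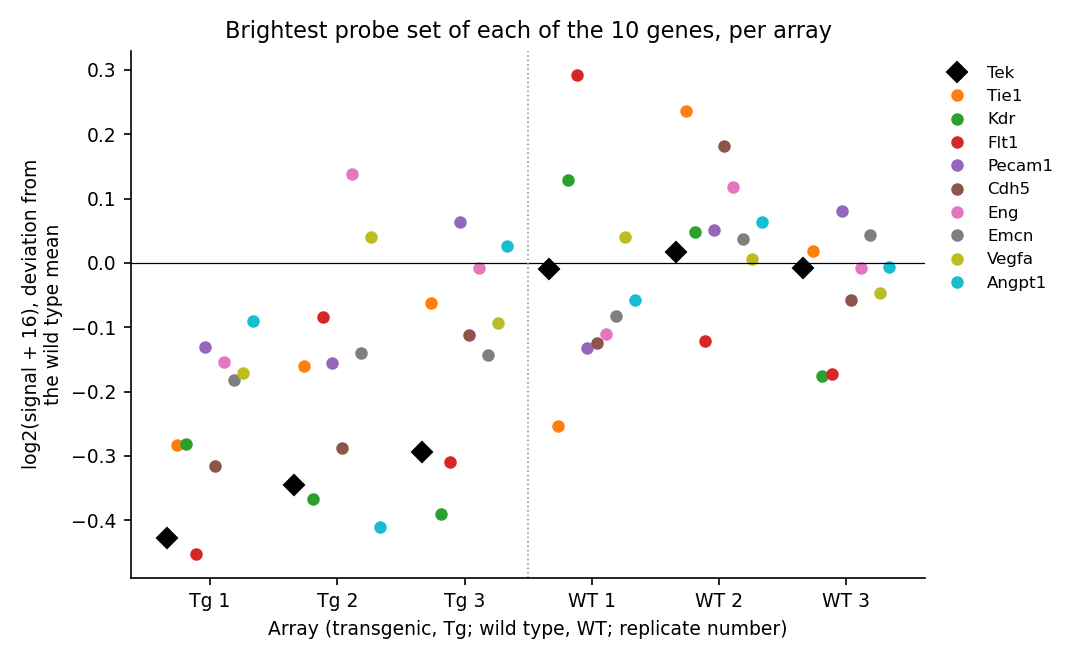
Deviation of the brightest probe set of each of the 10 genes from its own wild type mean, in log2(signal + 16), on the 3 transgenic arrays (left) and the 3 wild type arrays (right). Tek (black diamond) lies at -0.43 to -0.29 on the transgenic arrays and within 0.02 of 0 on the wild type arrays, while several other genes spread widely on both sides.

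The pattern of Tek over the 6 arrays was set beside that of the brightest probe set of each of 12941 other genes, by Pearson's r of log2(signal + 16). All values share the same arrays and their scaling, 6 points give r little weight, and the ranking is a description. Most like Tek were Hpgd, an enzyme that degrades prostaglandins, with r = 0.992, Slc9a3r1, a membrane scaffold protein, with 0.990, and 2210010C04Rik with 0.988, followed by the growth factor gene Egf with 0.987 and Pigg, an enzyme of GPI anchor synthesis, with 0.986. In all, 159 genes had r of at least 0.9, and the median was 0.02.

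Hpgd gave 154, 167 and 173 in transgenic muscle and 209, 214 and 220 in wild type muscle. Slc9a3r1 gave 242, 258 and 300.4 in transgenic muscle and 412, 442 and 395 in wild type muscle. Both were picked for a pattern like that of Tek, so their lower transgenic arrays follow from the ranking.

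None of the vessel genes described with Tek was among those 5. These genes were chosen with this contrast known, so r over all arrays in part restates the difference between the genotypes. Emcn came nearest with r = 0.892, at rank 178, then Kdr with 0.820, Cdh5 with 0.807, Flt1 with 0.634, Tie1 with 0.575, Vegfa with 0.557, Angpt1 with 0.525, Pecam1 with 0.470 and Eng with 0.167. Once each genotype's mean was taken away, r with Tek was 0.650 for Cdh5, 0.588 for Eng, 0.577 for Pecam1 and 0.567 for Tie1. It was 0.436 for Vegfa, 0.370 for Emcn, 0.210 for Flt1, 0.175 for Angpt1 and -0.29 for Kdr. Tek varied little among the wild type arrays, so these values rest largely on the transgenic ones.

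Other genes of vessels, of related pathways and of other cell types of muscle were read from lists, with the brightest tested probe set of each gene. Of 133 such genes over 15 lists, 0 passed an adjusted p of 0.05 in limma, against 0.147% of all genes, and 19 had an unadjusted p under 0.05, against 8.15% of all genes. The 28 further endothelial markers had a median log2 difference of 0.00, with 14 below and 14 above 0, where that of all genes was -0.00. Their summed signal was 12438 to 13154 in transgenic muscle and 12512 to 12793 in wild type muscle, which overlap. Over the alternatives their median ran from -0.06 to 0.05.

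Within that list, S1pr1, a sphingosine-1-phosphate receptor of endothelial cells, gave 204, 246 and 229 in transgenic muscle and 191, 167 and 145 in wild type muscle. All its transgenic arrays were the higher ones, and the log2 difference was 0.40 (adjusted p in limma, 0.433). Cd93, a glycoprotein of endothelial cells, gave 659, 610 and 713 in transgenic muscle and 747, 856 and 714 in wild type muscle, a log2 difference of -0.22 (adjusted p in limma, 0.607). Gpihbp1, which carries lipoprotein lipase to the capillary surface, had a log2 difference of 0.24 (adjusted p in limma, 0.610). The differences of these 3 genes lay on both sides of 0, and none passed the adjusted threshold.

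Of 7 measured genes listed with the angiopoietin and Tie axis besides Tek, Tie1 and Angpt1, 6 were below 0, Angptl4 among them. Of the 7, 0 were called, and their median log2 difference was -0.09. Angpt2, a ligand that can block Tek, gave 63.8, 54.2 and 83.2 in transgenic muscle and 73.5, 102 and 68.8 in wild type muscle, with overlapping groups. Dok2, an adaptor that binds the active receptor, had a log2 difference of -0.24. Angptl4, listed here although it is a secreted inhibitor of lipoprotein lipase, had one of -0.40. The summed signal of the 7 genes was 1809 to 1881 in transgenic muscle and 1938 to 2016 in wild type muscle, so that the sums did not overlap. Angptl4 entered that sum with 180, 156 and 286 in transgenic muscle and 199, 291 and 333 in wild type muscle. A sum without it was not taken, so the gap is not read as one of the whole axis. With the mean over a gene's probe sets the list's median was 0.02, so its sign depended on which probe sets were read.

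Of 7 measured genes of further VEGF ligands, receptors and partners, 4 were below 0, 3 above and 0 called. The VEGF co-receptor Nrp1 gave 824, 832 and 827 in transgenic muscle and 901, 990 and 882 in wild type muscle, a log2 difference of -0.15. Vegfb, a ligand of Flt1, gave 699, 721 and 810 in transgenic muscle and 645, 639 and 692 in wild type muscle, a log2 difference of 0.17. Neither gene's arrays overlapped between the genotypes, and adjusted p in limma was 0.666 for Nrp1 and 0.679 for Vegfb.

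Among 9 regulators of Vegfa 6 were below 0, 3 above and 0 were called. The smallest p were those of Egln1, Vhl and Ppargc1a, a coactivator of mitochondrial and Vegfa transcription in muscle. Their log2 differences were -0.18, -0.34 and -0.26 (adjusted p in limma, 0.695, 0.703 and 0.705). The hypoxia factor genes Hif1a and Epas1 had log2 differences of -0.08 and -0.04. Of the 16 genes around endoglin and the BMP and TGF-beta receptors, 9 were below 0 and 0 called, with a median of -0.02, and the endoglin ligand gene Gdf2 was at -0.37 from a dim signal of 55.0 ± 11.3 in transgenic and 75.6 ± 11.4 in wild type muscle (SD, n = 3 each). Of 8 junction partners of VE-cadherin 4 were below 0 and 0 called, with a median of -0.01. The genes with the smallest p lay on both sides of 0. F11r, a junctional adhesion molecule, and Cdh2, N-cadherin, were at -0.39 and -0.45, and Ctnna1 was at 0.15. Their adjusted p in limma was 0.610, 0.623 and 0.745. Cdh2 was dim, at 31.4 to 47.6 in transgenic and 53.5 to 57.8 in wild type muscle.

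Of 10 measured Notch genes 7 were below 0 and 0 called. Hey1, a transcriptional target of Notch, gave 43.4, 48.9 and 35.0 in transgenic muscle and 67.7, 77.7 and 64.3 in wild type muscle, a log2 difference of -0.56 (adjusted p in limma, 0.450). Notch4, a Notch receptor of endothelial cells, gave 126, 121 and 121 in transgenic muscle and 101, 108 and 44.4 in wild type muscle, a log2 difference of 0.53 in which wild type replicate 3 stood far below the rest. Both had groups that did not overlap, in opposite directions, and Hey1 was dim. The groups of Rbpj did not overlap either, with a log2 difference of 0.25 (adjusted p in limma, 0.591).

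**Figure D4:**
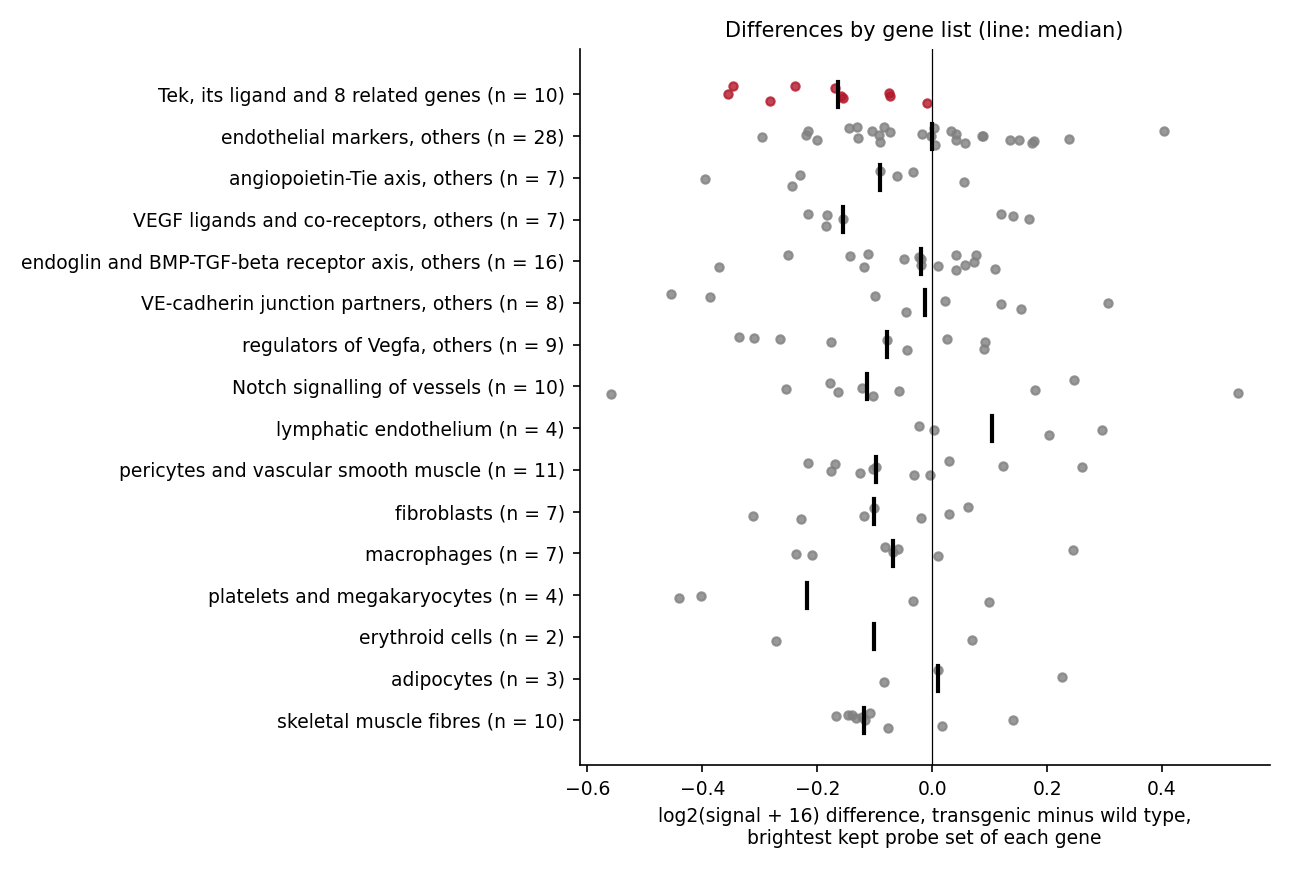
Difference in log2(signal + 16), transgenic minus wild type, of the brightest tested probe set of each gene (point), for the 10 genes described (red, top row) and 15 other lists of vessel and cell type genes (grey), with each list's median (black line). The top row lies wholly below 0 with a median of -0.16, and the row of 28 further endothelial markers is spread around 0.

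Markers of other cell types moved as follows. The 11 genes of pericytes and vascular smooth muscle had a median log2 difference of -0.10 and summed signals of 10659 to 11352 in transgenic and 10513 to 11218 in wild type muscle. The medians were 0.10 for 4 lymphatic markers, -0.10 for 7 fibroblast markers and -0.07 for 7 macrophage markers. They were -0.22 for 4 markers of platelets and megakaryocytes, -0.10 for 2 erythroid markers and 0.01 for 3 adipocyte markers, with 0 genes called in each list. Of the fibroblast markers 5 were below 0 and 2 above. Dcn and Col1a2 had the smallest p there, at -0.31 and -0.23 (adjusted p in limma, 0.0879 and 0.441), and the arrays of Dcn did not overlap. Of the macrophage markers Csf1r was at -0.21 and C1qb at 0.25 (adjusted p in limma, 0.496 and 0.578), both without overlap. The medians of the platelet, erythroid and adipocyte markers, and of the endoglin and junction lists, changed sign in 1 to 5 of 19 alternatives. The 10 muscle fibre markers had a median of -0.12, with 8 below 0 and 0 called. For 6 of the 10 every transgenic array lay below every wild type array, a pattern of 982 of all 12942 genes. At an unadjusted p under 0.05 in limma 5 of the 10 were lower, against 549 of all genes. Mylpf, Tnni2 and Myh4 had the smallest p, at -0.15, -0.14 and -0.17. The summed signal of the 10 markers was 169462 to 177305 in transgenic muscle and 184403 to 187978 in wild type muscle, so that it too was lower on every transgenic array. Their signals lie near the top of the scale, where signal can be compressed. Quantile normalization gives every array the same set of values, which by construction pulls a shared difference at the top of the scale towards 0. With it the median of the fibre markers was 0.00, from which nothing is read. In that fit Tek was at -0.35, Kdr at -0.34 and Emcn at -0.16. At equal array medians they were at -0.30, -0.30 and -0.10. The part of cell composition in the signals of Tek, Kdr and Emcn was not tested.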

How the data were processed

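Each of 6 Affymetrix Mouse430_2 arrays measured RNA of 1 pool of animals, so p-values rest on the spread between pools. The authors deposited a linear intensity (signal) for each probe set. The submitters' processing notes name GCOS 1.1.1, and no source used here names its algorithm. The values show that each array had been scaled to a mean of 150.0 after trimming 2% at each end. Run information of other content gave the fluidics modules and the hour of hybridisation, by which alone the rounds were set.

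After 64 control rows were left out, log2(signal + 16) went into a two-sided limma fit (3.58.1, R 4.3.3) without covariates and with an intensity trend, over the 27022 probe sets with a mean past the 40th percentile, or near 21.7 in signal. Benjamini-Hochberg adjustment ran over all of them. The fit was tested on simulated data. The number of arrays limits the precision. Symbols came from the platform annotation, updated through gene identifiers to RefSeq, where 34741 of 34945 probe sets with 1 symbol matched. Promoter windows were found for 7 of the 10 genes.

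The genes, lists and tests were chosen with earlier results of these data known. Named are every probe set of the 10 genes, of each other list up to 3 genes with the smallest p (a part is given), the 5 genes most like Tek, and Itga7. Markers given in addition (Ckm, Hif1a, Epas1) were chosen after their values were seen. Alternatives covered offset, normalization, filter, variance model, blocks and left-out arrays.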

Additional observations from a re-analysis of the deposited data

How the results depend on the processing

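Over 18 alternatives, 13 of the 17 probe sets kept the sign of their difference, among them those of Tek (-0.39 to -0.30), Kdr (-0.43 to -0.26), Emcn (-0.20 to -0.10), Tie1 (-0.30 to -0.05), Pecam1 (-0.14 to -0.02), Cdh5 (-0.33 to -0.15 for 1433956_at and -0.36 to -0.07 for 1422047_at) and Flt1 (-0.38 to -0.14 for 1451756_at and -0.63 to -0.16 for 1419300_at), and 4 with differences near 0 changed it in 1 to 3 alternatives (Flt1 1454037_a_at and 1440926_at, Eng 1417271_a_at and Vegfa 1451959_a_at). The smallest of these differences for Tie1, Cdh5 and Flt1 came from leaving out 1 array: wild type replicate 2 for Tie1 and for Cdh5 1433956_at, replicate 3 for Cdh5 1422047_at, replicate 1 for Flt1 1451756_at, and transgenic replicate 1 for Flt1 1419300_at. The smallest for Tek, Emcn and Pecam1 came at equal array medians. Of the 17 probe sets, between 12 and 13 of those tested were below 0, and their median ran from -0.16 to -0.07. The dim Cdh5 probe set was not tested with the filter at the 60th percentile. None of the 17 passed the adjusted threshold in any alternative but one. Where fluidics modules entered as random blocks, 1 did, that of Tek, from which nothing is read because the gene was chosen with this contrast known, and 1 gene of the other lists, Dcn, did too. In that fit 297 probe sets passed, 154 higher and 143 lower, against 33, 27 and 6 as reported. No module carried both genotypes. The correlation within a module that this fit estimated over all tested probe sets, around the genotype means, and then used was -0.44. Numbers of probe sets past the threshold were otherwise 50, with 42 higher, at equal array medians, 17, with 16 higher and 1 lower, without a filter, and 1, with 1 higher and 0 lower, without the intensity trend. The lower ones numbered 2 with an offset of 1, 11 with array weights and 13 with the hybridisation round as a block. Leaving out 1 array gave 18 to 39 probe sets, 17 to 30 higher and 0 to 9 lower. The lowest totals came without replicate 1 (19) or replicate 2 (18) of the wild type. The cause of these changes was not tested. The replicate block gave 36 probe sets and 0 of the 17. Same-numbered arrays deviated together only weakly (correlations of 0.00, 0.06 and 0.05), where the other combinations ran from -0.08 to 0.02. With so few pools these values cannot tell whether the numbers pair the samples.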
